A study of Homo sapiens with 9 samples.

Results

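The BCL2 family sets the threshold at which mitochondria release cytochrome c and start apoptosis, and 10 of its genes were followed here among the 27800 gene symbols of the table. They were taken by name. The 4 anti-apoptotic members are BCL2A1, MCL1, BCL2L1 (BCL-xL) and BCL2L2 (BCL-w). The pore-forming effectors are BAX and BAK1, and the 4 BH3-only members are BBC3 (PUMA), PMAIP1 (NOXA), BCL2L11 (BIM) and BMF. All 10 were in the table and all passed the filter on low values, which asked for 1 TPM or more in 3 or more of the 9 libraries. BCL2A1 reached 1 TPM in 3 day 0, 0 day 2 and 2 day 14 libraries. BMF reached it in no day 0 library and in 6 later ones. Both therefore passed through the days on which they were high, and counts over the members are given as descriptions.

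The cells were PANC-1, an established line from a human pancreatic ductal tumour that is known to carry a deletion of CDKN2A. There were 3 libraries of total RNA each from day 0, day 2 and day 14 of combined nutrient and oxygen deprivation, with no further treatment. The table heads all 9 columns WT, and no other genotype was used here. The medium was DMEM in which glucose was set at 2.5 mM, serum (fetal calf) at 0.5% and amino acids at 20% of their usual level. This protocol was given for all 9 samples, so the labels do not say how the day 0 cells differed in culture. The labels give no oxygen level and no undeprived cells at day 2 or day 14. Effects of deprivation and of time in culture cannot be told apart. Nothing says that replicates came from separate cultures, so p-values measure only the spread between these libraries, which may be technical.

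Anti-apoptotic members bind and hold the effectors and the BH3-only proteins. BH3-only proteins are the stress sensors: when they are induced or activated they occupy the groove of the anti-apoptotic members or engage BAX and BAK1 directly, and the effectors then permeabilize the outer mitochondrial membrane. Pancreatic tumour cells are known to lean on BCL-xL and MCL1. Much of this control is on the proteins, above all for the short-lived MCL1, and is not seen in RNA. The comparison of the anti-apoptotic with the BH3-only and effector members over the 3 days asks how the message side of this balance stood early and late in deprivation.

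Values are TPM, a measure of transcript share that counts molecules per length within a library and can be compared between genes. Each library summed to 1000000 TPM and keeps no depth, so the depth is unknown. TPM is relative, and less message per cell and fewer cells with the message cannot be told apart. Day 0 replicate 2 stood apart. It correlated at 0.87 and 0.875 with the other day 0 libraries over 14144 genes, against 0.933 to 0.972 for the other pairs within a day. It listed 11363 symbols at 1 TPM or more, against 13016 to 13868 elsewhere, and held 23.8% of its TPM in ribosomal protein genes, against 10.2% to 14.8%. Many of the results that rest on day 0, though not all, are therefore also given without it. The 7 epithelial and PANC-1 markers were all expressed, and CDKN2A was listed at 0 in all 9 libraries. Of the markers of other cell types, COL1A1 reached 72.6 TPM while DCN stood at 0, and the blood, endothelial, acinar and islet markers stayed at or below 0.954 TPM.

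The stretches upstream of the start sites are shown for 3 BH3-only genes that were higher on both later days, for BCL2A1, which was lower, and for BAX, picked after its matches had been seen. Each is the 250 bases before the RefSeq start site in build GRCh38.p14, read 5' to 3' along the gene. Of the 10 members 8 had an entry. Capitals mark matches on either strand to GTAAACA (the FOXO motif), TGATGNAA (a C/EBP-ATF composite motif of the kind bound by ATF4 and CHOP), CACGTG (the E-box), ACGTG (the core of the hypoxia response element, contained in every CACGTG) or a strict form of the NF-kB motif.
BBC3, chr19:47232668-47232917, minus strand: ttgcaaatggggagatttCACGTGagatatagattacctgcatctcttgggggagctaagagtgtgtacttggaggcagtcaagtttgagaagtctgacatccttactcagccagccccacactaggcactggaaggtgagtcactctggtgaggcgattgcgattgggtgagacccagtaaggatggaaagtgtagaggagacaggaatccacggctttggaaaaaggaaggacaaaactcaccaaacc
BMF, chr15:40108880-40109129, minus strand: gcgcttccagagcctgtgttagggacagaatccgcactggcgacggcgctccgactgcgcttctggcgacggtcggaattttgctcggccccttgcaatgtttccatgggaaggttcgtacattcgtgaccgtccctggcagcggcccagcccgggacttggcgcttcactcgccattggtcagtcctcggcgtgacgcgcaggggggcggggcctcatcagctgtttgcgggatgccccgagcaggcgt
BCL2L11, chr2:111120664-111120913, plus strand: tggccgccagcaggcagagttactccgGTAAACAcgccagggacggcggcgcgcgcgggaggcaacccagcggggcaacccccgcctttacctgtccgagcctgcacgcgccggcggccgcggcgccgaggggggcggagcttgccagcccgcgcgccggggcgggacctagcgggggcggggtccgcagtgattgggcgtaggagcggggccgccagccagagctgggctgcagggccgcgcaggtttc
BCL2A1, chr15:79971197-79971446, minus strand: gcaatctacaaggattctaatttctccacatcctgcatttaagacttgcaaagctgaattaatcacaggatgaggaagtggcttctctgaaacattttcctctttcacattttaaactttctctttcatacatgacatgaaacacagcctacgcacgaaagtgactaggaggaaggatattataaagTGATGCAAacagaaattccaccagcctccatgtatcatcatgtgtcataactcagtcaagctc
BAX, chr19:48954625-48954874, plus strand: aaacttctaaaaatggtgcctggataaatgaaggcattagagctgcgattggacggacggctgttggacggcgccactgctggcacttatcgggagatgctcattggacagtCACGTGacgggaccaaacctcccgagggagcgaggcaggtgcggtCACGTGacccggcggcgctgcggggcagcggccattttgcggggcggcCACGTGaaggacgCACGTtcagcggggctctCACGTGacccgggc
BCL2L11 holds GTAAACA at 223 to 217 bases before its start, a string that 2.98% of 35116 such windows hold. BBC3 holds 1 CACGTG at 232 to 227 bases before its start, and 6.34% of windows hold at least 1. BAX holds 4 CACGTG and 1 further ACGTG on its own; only 5 windows in all (0.0142%) hold 4 or more CACGTG, and 18.5% hold an ACGTG. BCL2A1 holds TGATGCAA at 63 to 56 bases before its start, and 3.14% of windows hold a TGATGNAA. Neither BMF start site has any of the 5 motifs in this window. The NF-kB form, held by 1.73% of windows, was in none of the members' windows. These are matches of letters, not shown sites of binding.

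**Figure D1:**
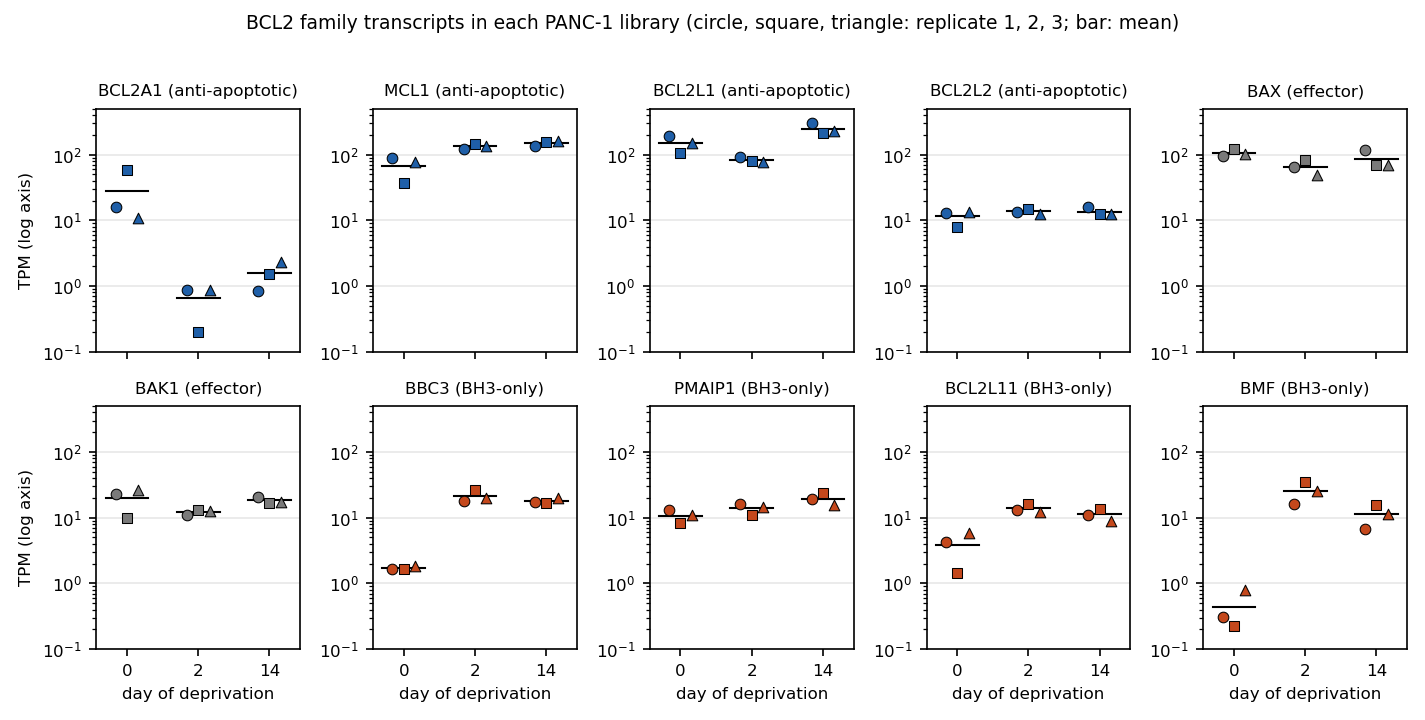
TPM on a log axis in each library for the 10 members at day 0, 2 and 14, with replicates as circle, square and triangle and the day mean as a bar. BBC3 and BMF lie above their day 0 values in all later libraries, BCL2A1 lies at 0.197 to 2.33 TPM after day 0, and BCL2L1 is lowest at day 2 and highest at day 14.

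Of the 4 BH3-only members BBC3, BCL2L11 and BMF rose after 2 days of deprivation, PMAIP1 did not pass and none fell, where 30.7% of the 14144 tested genes were called, 19.2% higher and 11.5% lower. By day 14 all 4 were higher than at day 0, where 34.2% of tested genes were called, 27.5% higher and 6.72% lower. The median log2 change of the 4 was 2.38 at day 2 and 2.12 at day 14, against 0.23 and 0.44 for all tested genes. Of all called genes 62.4% were higher at day 2 and 80.4% at day 14, and median-ratio scaling made these 52.4% and 51.1%. Calls are those of limma at an adjusted p of 0.05, and log2 changes are on the scale log2(TPM + 1).

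BMF, which in its resting form is tied to the cytoskeleton and binds anti-apoptotic members, had the largest rise of the 10 members on both later days. It was at 0.311, 0.224 and 0.782 TPM in the day 0 libraries, at 16, 34.8 and 25.7 TPM at day 2 and at 6.81, 15.7 and 11.3 TPM at day 14. No later library overlapped day 0, and the highest day 14 value lay just under the lowest day 2 value. The log2 change was 4.16 ± 0.36 (SE) at day 2 (adjusted p = 0.000208) and 3.04 ± 0.36 at day 14 (adjusted p = 0.000774). BMF passed the filter only through the days on which it was high, and with no filter the adjusted p were 0.000641 and 0.00194. At day 2 it ranked 34 by size among genes with a positive change. Between day 2 and day 14 the log2 difference was -1.11, with a 95% interval of -1.93 to -0.30, and did not pass (adjusted p = 0.162).

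BBC3, a strong binder of all anti-apoptotic members, had very even day 0 values of 1.67, 1.66 and 1.84 TPM. At day 2 it was at 18.2, 26.5 and 20 TPM, and at day 14 at 17.3, 17 and 20.1 TPM. Every later library lay far above every day 0 library, and the later days overlapped each other. The rise was 3.03 ± 0.19 on the log2 scale at day 2 (adjusted p = 6.74e-05) and 2.81 ± 0.19 at day 14 (adjusted p = 0.00011). The mean of 1.72 ± 0.101 TPM at day 0 compared with 21.5 ± 4.36 at day 2 and 18.1 ± 1.73 at day 14. From day 2 to day 14 the change was -0.22 (95% interval -0.65 to 0.21, adjusted p = 0.585).

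BCL2L11 encodes BIM, which binds all anti-apoptotic members and can activate BAX. It was at 4.33, 1.46 and 5.84 TPM at day 0, at 13.3, 16.3 and 12.4 TPM at day 2 and at 10.9, 13.6 and 9.05 TPM at day 14. All later libraries lay above all day 0 libraries, of which replicate 2 was the lowest. Its log2 change was 1.73 ± 0.36 at day 2 (adjusted p = 0.00819) and 1.43 ± 0.36 at day 14 (adjusted p = 0.0167). With day 0 replicate 2 left out these were 1.30 (adjusted p = 0.00163) and 1 (adjusted p = 0.00508). The day 14 call was lost without day 14 replicate 2 (adjusted p = 0.0619) and in a fit of day 0 and day 14 alone (0.0538).

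PMAIP1 encodes NOXA, which binds MCL1 and BCL2A1 and promotes the breakdown of MCL1. It was at 12.9, 8.38 and 10.9 TPM at day 0, at 16.3, 11 and 14.6 TPM at day 2 and at 19, 23.8 and 15.5 TPM at day 14. Day 2 overlapped day 0, and day 14 did not. The day 2 change of 0.35 did not pass (95% interval -0.20 to 0.90, adjusted p = 0.29), and the day 14 rise of 0.80 ± 0.24 did (adjusted p = 0.0335). Relative to the median of all genes the day 14 change was 0.36, and under median-ratio scaling and quantile normalization the call was lost (log2 changes 0.30 and 0.32, adjusted p = 0.352 and 0.354). Leaving out day 0 replicate 3 (adjusted p = 0.0603), day 2 replicate 1 or 3 (0.0503 and 0.0573) or day 14 replicate 1 or 2 (0.0808 and 0.119) also ended it, as did a fit of these days alone (0.0783) and TPM without MIR6723 and MIR4461 (0.108).

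The anti-apoptotic members moved apart from one another. At day 2 MCL1 rose while BCL2A1 and BCL2L1 fell, so 1 of 4 was higher and 2 lower, where 19.2% of all tested genes were higher and 11.5% lower. At day 14 MCL1 and BCL2L1 were higher than at day 0 and BCL2A1 was lower, where the shares were 27.5% and 6.72%. BCL2L2 passed no comparison. The median log2 change of the 4 was -0.28 at day 2 and 0.50 at day 14, against 0.23 and 0.44 for all tested genes.

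BCL2A1, an NF-kB target that binds BIM, PUMA and NOXA, lost nearly all of its message. It stood at 15.7, 58.2 and 10.8 TPM at day 0, at 0.876, 0.197 and 0.876 TPM at day 2 and at 0.842, 1.5 and 2.33 TPM at day 14. All later libraries lay far below all day 0 libraries, of which replicate 2 was much the highest. The log2 change was -3.81 ± 0.55 at day 2 (adjusted p = 0.00168), the 13th largest fall, and -3.19 ± 0.55 at day 14 (adjusted p = 0.00362). BCL2A1 passed the filter only through day 0 and day 14, and with no filter the adjusted p were 0.00431 and 0.00791. The changes without day 0 replicate 2 were -3.12 (adjusted p = 0.000285) and -2.50 (adjusted p = 0.000712). The difference of 0.62 between day 14 and day 2 did not pass (95% interval -0.63 to 1.87, adjusted p = 0.598).

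MCL1, the short-lived guardian that holds BIM, NOXA and BAK1, was at 88.2, 36.9 and 78.1 TPM at day 0. It was at 124, 145 and 138 TPM at day 2 and at 137, 154 and 160 TPM at day 14. Every later library exceeded every day 0 library, and the later days overlapped. The rise was 1.08 ± 0.30 at day 2 (adjusted p = 0.0264) and 1.23 ± 0.30 at day 14 (adjusted p = 0.015), or 0.85 and 0.79 relative to the median of all genes. When day 0 replicate 2, the library with the lowest MCL1, was omitted, the rises were 0.70 (adjusted p = 0.00261) and 0.85 (adjusted p = 0.00117). The day 2 call was lost without day 2 replicate 1, 2 or 3 (adjusted p = 0.0626, 0.0832 and 0.0783), and the day 14 call without day 14 replicate 3 (adjusted p = 0.0513). Fits of only the days compared also ended both (adjusted p = 0.0704 and 0.0516).

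BCL2L1 gives BCL-xL, which holds BAX, BAK1 and the BH3-only proteins, and was the most abundant member at day 0 and day 14. It was at 191, 107 and 150 TPM at day 0, fell to 91, 80.3 and 76.9 TPM at day 2, and stood at 306, 212 and 231 TPM at day 14. The 3 days did not overlap. The log2 change was -0.81 ± 0.24 at day 2 (adjusted p = 0.034) and 0.76 ± 0.24 at day 14 (adjusted p = 0.0404), both against day 0. From day 2 to day 14 it rose by 1.57 ± 0.24 (95% interval 1.02 to 2.12, adjusted p = 0.0415), a 3.02-fold higher mean. It was 1 of only 30 genes called higher at day 14 than at day 2 (0.212% of those tested, with 29 or 0.205% lower and 0.417% in all), and the only member called.

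These BCL2L1 calls depended on single libraries. The rise from day 2 to day 14 was between 1.41 and 1.68 with each library left out in turn. Its adjusted p was 0.0055 without day 0 replicate 2, when 3848 genes were called in place of 59. It was 0.0565 and 0.0812 without day 0 replicate 1 and 3, 0.163, 0.174 and 0.212 without day 2 replicates 1, 2 and 3, and 0.149, 0.105 and 0.127 without day 14 replicates 1, 2 and 3. The call was also lost with a pseudocount of 0.1 (adjusted p = 0.0692), no filter (0.0518), a mean of 5 TPM (0.0591) and without MIR6723 and MIR4461 (0.116). The day 2 fall was called without day 0 replicate 2 (-1.03, adjusted p = 0.00308). It missed the threshold when day 0 replicate 1 or 3 was omitted (adjusted p = 0.089 or 0.0737), or day 2 replicate 1, 2 or 3 (0.0711, 0.0957 or 0.108), or day 14 replicate 3 (0.0545), in a fit of these days alone (0.0642) and without MIR6723 and MIR4461 (0.0932). The day 14 rise over day 0 was only 0.32 above the median of all genes, and under median-ratio scaling it was 0.23 (adjusted p = 0.385). Without day 0 replicate 2 it was 0.54 (adjusted p = 0.042). It missed the threshold when day 0 replicate 3 was omitted (adjusted p = 0.0694), or day 2 replicate 1, 2 or 3 (0.0636, 0.0625 or 0.0654), or day 14 replicate 1, 2 or 3 (0.123, 0.0608 or 0.0823). The same held with no filter (0.0533), in a fit of these days alone (adjusted p = 0.103) and without MIR6723 and MIR4461 (0.107).

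BCL2L2, which gives BCL-w, held a narrow range. It was at 13, 8.02 and 13.7 TPM at day 0, at 13.6, 15.2 and 12.5 TPM at day 2 and at 15.8, 12.5 and 12.3 TPM at day 14, and the days overlapped. The log2 changes against day 0 were 0.26 (95% interval -0.26 to 0.78, adjusted p = 0.41) and 0.23 (-0.29 to 0.76, adjusted p = 0.444). Without day 0 replicate 2 they were 0.04 and 0.01 (adjusted p = 0.847 and 0.951). Its exons are shared with the readthrough transcript BCL2L2-PABPN1, listed at 26 to 67.5 TPM, so how Salmon divided the reads between them is uncertain. With both entries added, no comparison passed (log2 changes -0.05 and -0.01 against day 0).

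Neither effector gene passed against day 0 in the main fit, though both passed as lower under some alternatives, some of which also used all 9 libraries. BAX was at 95.5, 123 and 101 TPM at day 0, at 64.3, 83.7 and 49.7 TPM at day 2 and at 119, 69.6 and 70.1 TPM at day 14. All day 2 values lay below all day 0 values, and day 14 overlapped both. The day 2 change was -0.71 (95% interval -1.33 to -0.09, adjusted p = 0.079), which passed without day 14 replicate 1 (adjusted p = 0.049) and with array weights (0.0039). The day 14 change was -0.34 (95% interval -0.96 to 0.28, adjusted p = 0.348). Under median-ratio scaling it was -0.87 (adjusted p = 0.0811). Relative to the median of all genes the 2 BAX changes were -0.94 and -0.78.

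BAK1 was at 22.9, 9.99 and 26.6 TPM at day 0, at 10.9, 13.2 and 12.7 TPM at day 2 and at 20.9, 17 and 17.4 TPM at day 14. Day 0 replicate 2 was the lowest of all 9, and the other day 0 libraries were the highest. With it the day 2 change was -0.55 (95% interval -1.29 to 0.19, adjusted p = 0.226), and without it the change was -0.96 (adjusted p = 0.00125). The day 2 fall also passed under median-ratio scaling (-0.79, adjusted p = 0.00806), quantile normalization (-0.77, adjusted p = 0.00654) and array weights (-1.01, adjusted p = 6.13e-05). At day 14 the change was 0.00076 (adjusted p = 0.999) with that library and -0.41 (adjusted p = 0.0416) without it, or -0.48 (adjusted p = 0.00905) with array weights. Relative to the median of all genes the main-fit BAK1 changes were -0.78 at day 2 and -0.44 at day 14. Day 14 lay above day 2 in all libraries, at a log2 difference of 0.55 (adjusted p = 0.414, or 0.0201 without day 0 replicate 2, 0.0142 with array weights and 0.0372 in a fit of these days alone).

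**Figure D2:**
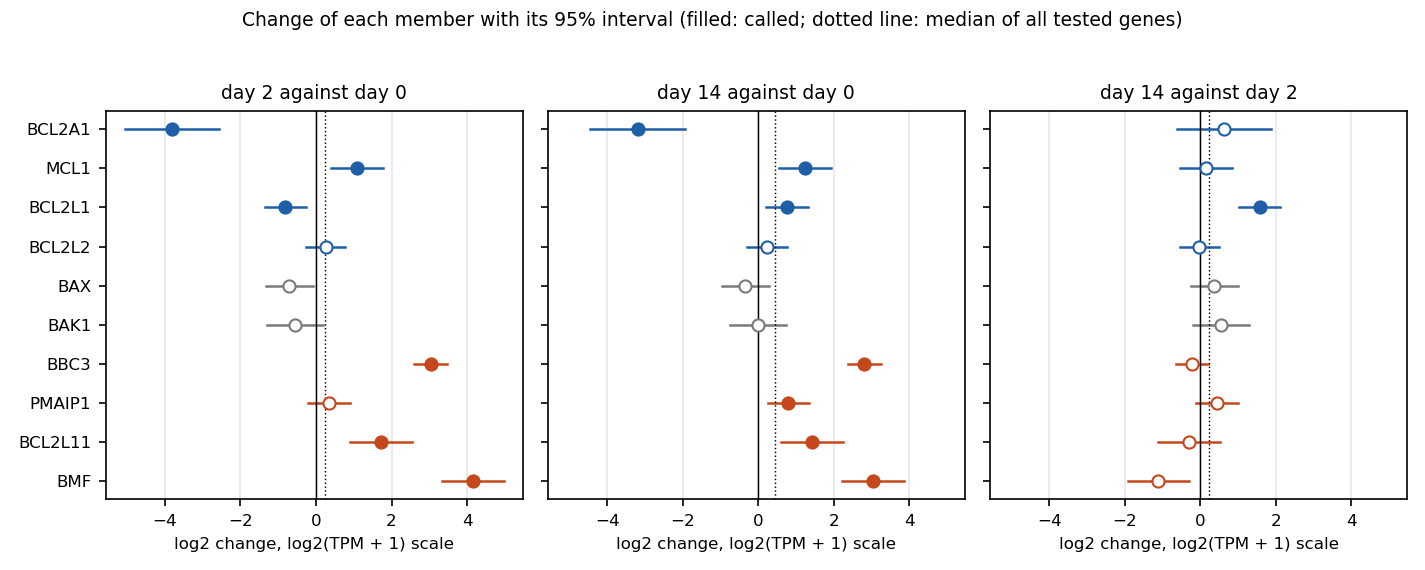
Log2 change of each member in the 3 comparisons on the log2(TPM + 1) scale, with its 95% interval, filled where called, and the median of all 14144 tested genes as a dotted line. BBC3, BCL2L11 and BMF lie to the right on both later days, BCL2A1 lies far to the left, and BCL2L1 changes side between day 2 and day 14.

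Because ratios of TPM within a library do not depend on how libraries are scaled, the members were also set against each other inside each library. These values describe the libraries and carry no test. The 4 BH3-only members together held 4.31%, 3.3% and 4.85% of the summed TPM of the 10 members at day 0. They held 17.3%, 20.8% and 20% at day 2 and 8.29%, 13% and 10.2% at day 14. The 3 days did not overlap, and the day 14 shares lay between the others. In TPM the BH3-only sum was 11.7 to 19.4 at day 0, 63.7 to 88.5 at day 2 and 54.1 to 70.1 at day 14. It leaves out the BH3-only genes BAD and BID, each higher at day 0 than any of the 4 members. BAD had means of 68.4, 19 and 26.8 TPM on the 3 days (43.8 at day 0 without replicate 2). BID had means of 25.5, 15.3 and 21.3 TPM. The rise of the sum therefore describes these 4 members, not BH3-only message as a whole.

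The effectors held a smaller share of the sum later. They held 26.5%, 37.5% and 31.9% at day 0, 20.4%, 22.7% and 17.2% at day 2 and 21.4%, 16.1% and 15.9% at day 14. The later days lay below day 0 and overlapped each other. In TPM the effector sum was 118 to 133 at day 0, 62.5 to 96.8 at day 2 and 86.6 to 139 at day 14, so at day 14 it overlapped day 0 while the sums of the other groups were higher. The anti-apoptotic members held 59.2% to 69.1% at day 0, 56.5% to 62.8% at day 2 and 70.4% to 73.9% at day 14. Their sum was 210 to 308 TPM at day 0, 228 to 241 TPM at day 2 and 381 to 459 TPM at day 14, so only the latest day stood clear of the others.

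**Figure D3:**
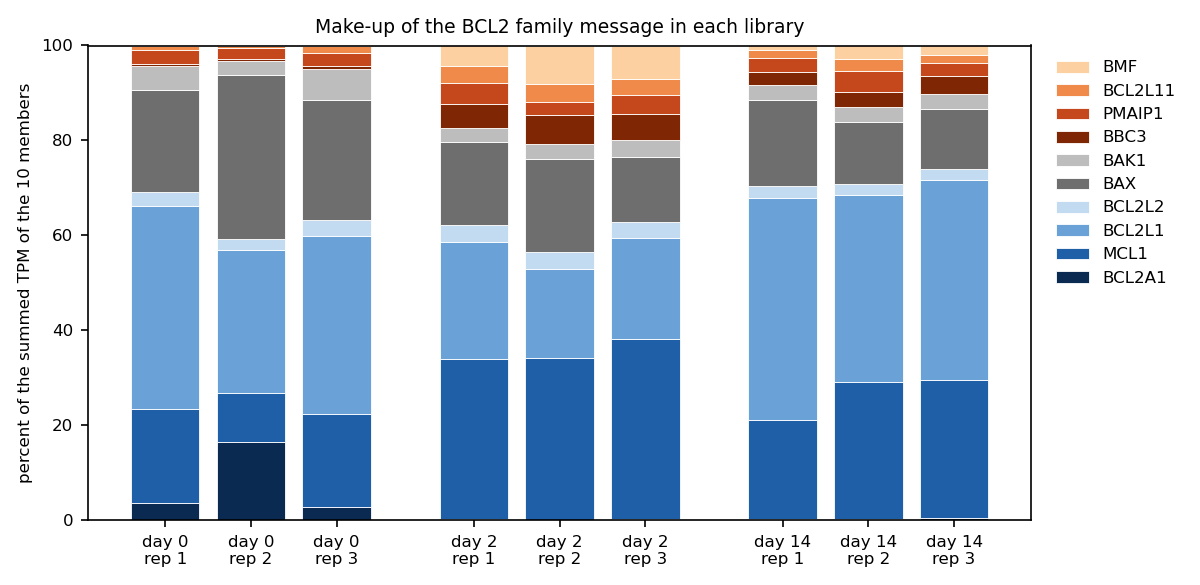
Percent of the summed TPM of the 10 members held by each of them, 1 bar per library and 3 libraries per day. The brown to orange BH3-only blocks are tallest at day 2, MCL1 is the largest blue block at day 2 and BCL2L1 at day 0 and day 14, and BCL2A1 forms a clear block only at day 0.

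Inside the anti-apoptotic group the leading gene changed. MCL1 message was 0.461, 0.344 and 0.521 times that of BCL2L1 at day 0, 1.36, 1.81 and 1.79 times at day 2 and 0.448, 0.727 and 0.691 times at day 14. MCL1 thus exceeded BCL2L1 in every day 2 library and in no other. At day 0 BCL2L1 led and overlapped BAX, and at day 2 it overlapped BAX again below MCL1. At day 14 the order BCL2L1, MCL1, BAX was clear of overlap. The BCL2L1 to BAX ratio was 2, 0.872 and 1.49 at day 0, 0.959 to 1.55 at day 2 and 2.58 to 3.3 at day 14. Replicate 2 gave the lowest of the day 0 ratios.

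The ratio of summed BH3-only to summed anti-apoptotic TPM was 0.0623, 0.0557 and 0.0767 at day 0, 0.278, 0.367 and 0.318 at day 2 and 0.118, 0.184 and 0.138 at day 14. The days did not overlap. This ratio counts only the 4 BH3-only members, without BAD and BID, whose mean TPM was lower on both later days than at day 0. For effectors the same ratio was 0.384, 0.632 and 0.505 at day 0, 0.274 to 0.402 at day 2 and 0.216 to 0.304 at day 14. For MCL1 and its partner PMAIP1 the ratio was 6.83, 4.4 and 7.16 at day 0, 7.6 to 13.3 at day 2 and 6.5 to 10.3 at day 14. In this pair day 14 overlapped the other days. Day 0 replicate 2 gave the highest day 0 effector ratio and the lowest day 0 MCL1 to PMAIP1 ratio.

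**Figure D4:**
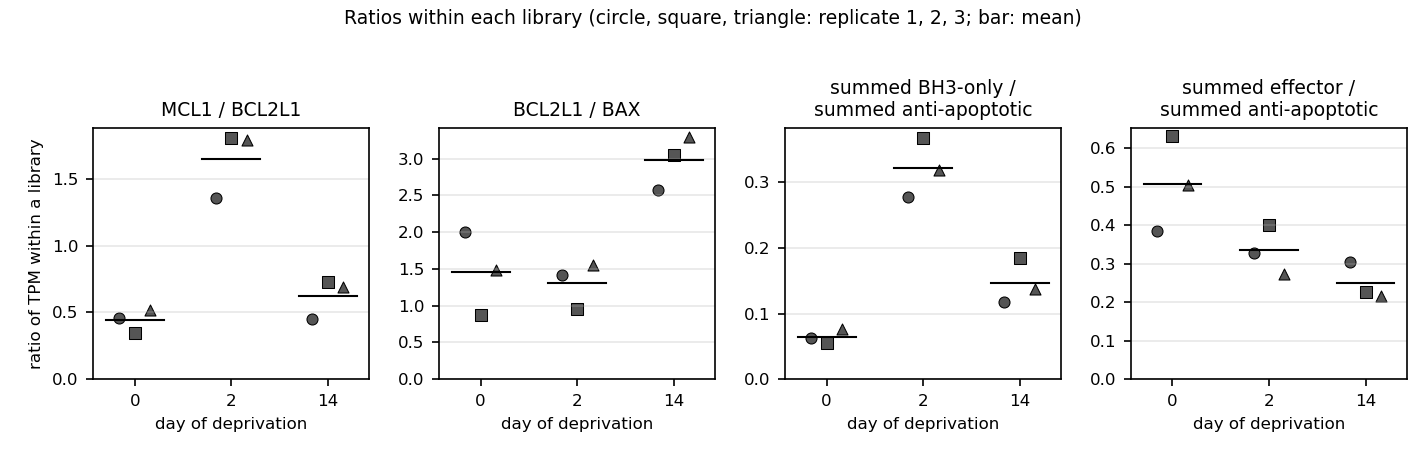
Ratios of TPM within each library at day 0, 2 and 14, with replicates as circle, square and triangle and the day mean as a bar. MCL1 over BCL2L1 and the 4 BH3-only over the 4 anti-apoptotic members peak at day 2, whereas BCL2L1 over BAX is highest at day 14.

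Giving each gene equal weight, the mean log2(TPM + 1) of the 4 anti-apoptotic members exceeded that of the 6 effector and BH3-only members by 2.22 ± 0.31 at day 0 (SD, n = 3). The difference of the group means was 0.06 ± 0.23 at day 2 and 0.69 ± 0.18 at day 14. The change of this difference was -2.16 at day 2 and -1.53 at day 14, and 0.62 from day 2 to day 14. Without day 0 replicate 2 the changes against day 0 were -2.02 and -1.40. The low genes BCL2A1 and BMF weigh heavily here, unlike in the sums. Without BCL2A1 the changes against day 0 were -1.16 and -0.55, and with a pseudocount of 5 in place of 1 they were -1.24 and -0.75. Against the effectors alone the difference was -0.17 ± 0.28, -0.37 ± 0.25 and -0.25 ± 0.31 on the 3 days, which overlap. Against the BH3-only members it was 3.42 ± 0.32, 0.28 ± 0.22 and 1.16 ± 0.27.

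The genes most like each called member across the 9 libraries were found by Pearson correlation of log2(TPM + 1), as a description. The libraries share 3 day steps, and the best of many genes is high by selection. For BBC3 these were PGPEP1 (0.998), the MYC antagonist MXI1 (0.995) and the peptide hormone gene ADM (0.995), which was at 134, 1184 and 1200 TPM on the 3 days. For BMF they were the mitochondrial protease LONP1 (0.99), CUTALP (0.99) and ARVCF (0.989), and for BCL2L11 they were KRT80 (0.991), HCN2 (0.991) and HOXC4 (0.99).

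For BCL2A1 the nearest genes were IKBIP (0.994), the centromere gene CENPU (0.99) and PCNA (0.982), the replication clamp, at 232.5, 46 and 63.5 TPM on the 3 days. For MCL1 they were ARHGEF2 (0.997), DCP1A (0.997) and ZNF585B (0.995), and for PMAIP1 they were KITLG (0.956), FILIP1L (0.939) and LURAP1L (0.937). BCL2L1, with its dip and late rise, was nearest to CDC42EP2 (0.987), TMEM41A (0.982) and UCK1 (0.976). CDC42EP2 was at 10.8, 5.82 and 17.2 TPM on the 3 days. All of these correlations stayed at or above 0.904 without day 0 replicate 2.

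Of 13 other genes of the family 8 were tested, and the lists from here on hold genes outside the 10. At day 2, 2 were higher and 3 lower, and at day 14, 3 and 2. Main-fit counts of all lists are to be read against the 30.7% of tested genes called at day 2 and 34.2% at day 14. Counts without day 0 replicate 2 are to be read against that fit. It called 3471 of 14144 tested genes higher and 3351 lower at day 2, and 4873 and 2063 at day 14. The list medians of the log2 change were -0.16 and 0.38 here, against 0.23 and 0.44 for all tested genes. BNIP3 and BNIP3L, hypoxia-induced mitophagy receptors with a BH3-like stretch, had the largest rises. BNIP3 went from 30 ± 1.2 TPM at day 0 to 319 ± 25 at day 2 and 226 ± 94.4 at day 14, with 117, 281 and 280 TPM in the day 14 libraries (log2 changes 3.37 and 2.76, adjusted p = 0.000308 and 0.000743). BNIP3L went from 9.03 ± 1.24 to 87.9 ± 0.215 and 91 ± 16.5 TPM (3.15 and 3.19, adjusted p = 6.74e-05 and 7.09e-05).

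The BH3-only gene BAD and the BCL2-like gene BCL2L12 fell. BAD was at 42.3, 118 and 45.3 TPM at day 0 and at 14.5 to 28.6 TPM later (log2 changes -1.66 and -1.16, adjusted p = 0.0116 and 0.0427). Without day 0 replicate 2 the changes were -1.19 and -0.69 (adjusted p = 0.00206 and 0.0199). Its day 14 call was lost without any 1 of the day 2 or day 14 libraries. No filter, TPM without ribosomal protein genes and a fit of these days alone also ended it (adjusted p up to 0.117). BCL2L12 went from 41.8 ± 7.77 to 16.5 ± 3.74 and 22.9 ± 3.06 TPM (-1.29 and -0.83, adjusted p = 0.00338 and 0.0194), and its day 14 call was lost without day 14 replicate 2 or 3 (adjusted p up to 0.0711). BID, which caspase 8 cleaves to link death receptors to mitochondria, fell at day 2 (-0.72, adjusted p = 0.022) from 25.5 ± 0.788 to 15.3 ± 3.19 TPM. That call was lost without day 0 replicate 1 or day 2 replicate 1 or 3. A block on replicate number and a fit of these days alone also ended it (adjusted p up to 0.0921). At day 14 the change was -0.26 (adjusted p = 0.316). The effector-like BOK was at 19.7 to 53.1 TPM and passed no comparison, and BCL2 itself was at 1.41 TPM or less in all libraries.

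Downstream of the mitochondria, in the list of apoptosome, caspase and released proteins, 1 of 14 tested genes was higher and 1 lower at day 2, and 2 were higher and none lower at day 14. Both counts lay below the share over all tested genes, and the list medians were -0.15 and 0.25. CASP9, the apoptosome caspase, rose to 5.3 ± 0.649 TPM from 1.75 ± 0.456 (1.2, adjusted p = 0.00217) and was also the gene called higher at day 2 (adjusted p = 0.0028). VDAC3, a channel of the outer membrane, fell at day 2 (-0.61, adjusted p = 0.0152). That call was lost without day 2 replicate 1 or 3 and without MIR6723 and MIR4461 (adjusted p up to 0.0696). Without day 0 replicate 2 the counts were 2 higher and 3 lower at day 2, and 2 and 2 at day 14.

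Among 7 inhibitor of apoptosis genes 2 rose and 2 fell at day 2, and 2 rose and 1 fell at day 14, with list medians of 0.41 and 0.75. Without day 0 replicate 2 the medians were 0.17 and 0.35, against 0.02 and 0.24 for all tested genes. XIAP, which blocks caspases directly, rose from 17 ± 2.44 to 34.1 ± 0.526 and 40.5 ± 3.56 TPM (log2 changes 0.97 and 1.21, adjusted p = 0.00356 and 0.0015). BIRC5, survivin, a mitotic gene, fell from 116.5 ± 8.76 to 30.4 ± 3.58 and 33.7 ± 16.1 TPM (-1.91 and -1.87, adjusted p = 0.00317 and 0.00349), and BIRC2 fell at day 2 (-0.85, adjusted p = 0.00899). BIRC6 rose by 1.67 and 1.76 (adjusted p = 0.0215 and 0.0161), or by 1.07 and 1.16 without day 0 replicate 2. Its day 2 call was lost without day 2 replicate 1, 2 or 3 and in a fit of these days alone (adjusted p up to 0.0683). The day 14 call was lost in a fit of day 0 and day 14 alone (adjusted p = 0.0531).

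In the death receptor list 1 of 9 tested genes was higher and 1 lower on both later days, below the share over all tested genes, with list medians of -0.03 and 0.17. TNFRSF10B, the TRAIL receptor DR5 and a known CHOP target, was at 13.1, 3.04 and 13.4 TPM at day 0 and at 41 to 50.2 TPM later (log2 changes 2.21 and 2.35, adjusted p = 0.00649 and 0.00498). Without day 0 replicate 2 its changes were 1.61 and 1.74 (adjusted p = 5.86e-05 and 5.74e-05). The adaptor gene FADD fell from 49.2 ± 2.85 to 24.7 ± 5.81 and 25.8 ± 2.99 TPM (-0.99 and -0.91, adjusted p = 0.00688 and 0.00929). At day 2, 3 genes of this list were lower without day 0 replicate 2.

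**Figure D5:**
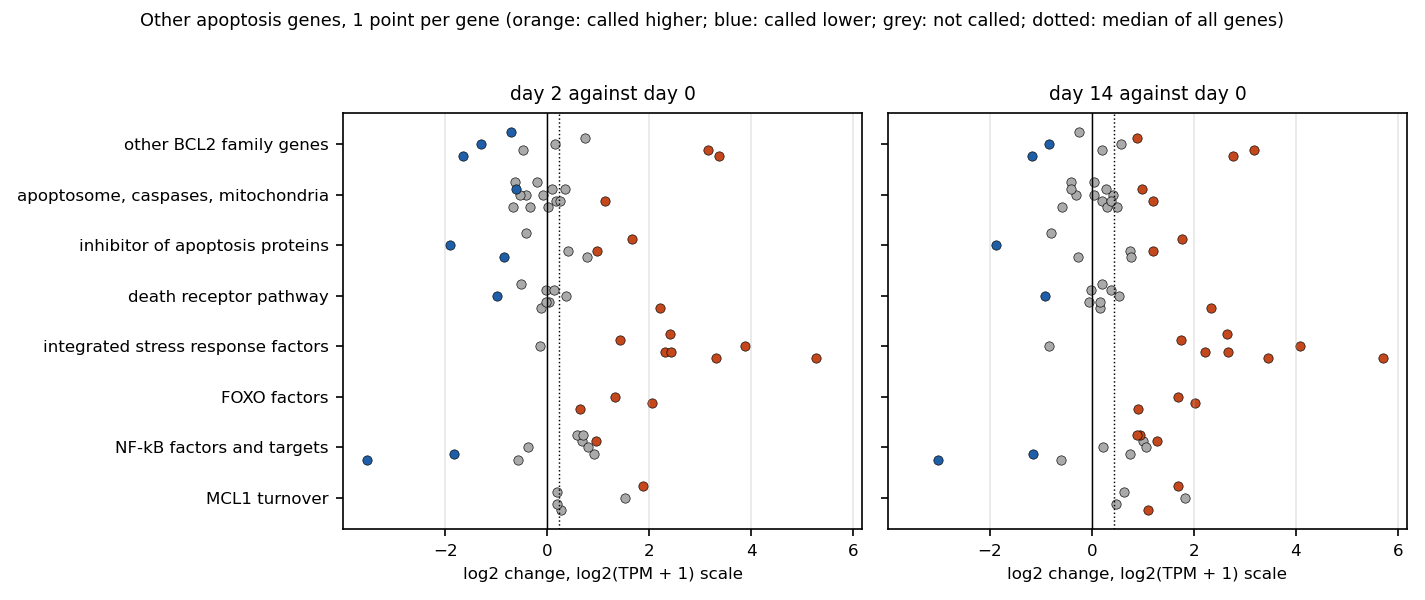
Log2 change of each tested gene of 8 other lists at day 2 and day 14 against day 0, orange where called higher, blue where called lower and grey where not called, with the median of all tested genes as a dotted line. The integrated stress response list lies farthest to the right, and 7 of its 8 genes were called higher on both days.

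Regulators known to act on the BH3-only genes were counted in the same way. In the integrated stress response list, whose factors ATF4 and CHOP are known activators of BBC3, PMAIP1 and BCL2L11, 7 of 8 genes rose on both days, with list medians of 2.42 and 2.66. DDIT3, which gives CHOP, was at 25.6 to 40.4 TPM at day 0 and at 284 to 383 TPM later (log2 changes 3.31 and 3.46, adjusted p = 6.74e-05 and 7.09e-05). ATF4 went from 148 ± 6.63 to 738 ± 35.3 and 700 ± 60.9 TPM, ATF3 from 1.55 ± 1.13 to 93.1 ± 29 and 125 ± 23.5 TPM and TRIB3 from 19.4 ± 3.71 to 295 ± 15.7 and 340 ± 23 TPM. The remaining gene, ATF5, was called lower on both days without day 0 replicate 2.

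All 3 FOXO factor genes, known activators of BCL2L11, BMF and BBC3, were higher on both days (2 of 3 at day 2 without day 0 replicate 2). The list medians were 1.33 and 1.70, which are the changes of FOXO4 itself. FOXO1 and FOXO4 were low, with means of 0.659 and 0.179 TPM at day 0 and 2.03 and 2.87 TPM at day 14. FOXO4 reached at most 0.277 TPM at day 0 and passed the filter only through the later days. FOXO3 was at 14, 3.63 and 13.8 TPM at day 0 and at 36.6 to 43.7 TPM later (2.05 and 2.02, adjusted p = 0.00706 and 0.0072). Without day 0 replicate 2 its changes were 1.49 and 1.46 (adjusted p = 0.000123 and 0.000151). The activity of these factors depends on their phosphorylation and place in the cell, which RNA does not show.

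For BCL2A1 the relevant list is that of NF-kB factors and targets, in which 1 of 10 tested genes was higher and 2 lower at day 2, and 3 and 2 at day 14. The day 2 count was close to the share over all tested genes, and the list medians were 0.63 and 0.82. The counts without day 0 replicate 2 were 1 and 3, and 4 and 1. The list medians were then 0.045 and 0.27, against 0.02 and 0.24 for all tested genes. CXCL1, a chemokine, was at 17.1, 17.2 and 7.68 TPM at day 0 and at 0.0675 to 1.18 TPM later (log2 changes -3.53 and -3.02, adjusted p = 0.00033 and 0.000708). CXCL1 reached 1 TPM in all day 0 libraries and otherwise only in day 14 replicate 3. It thus passed the filter through the day on which it was high. The same held for CXCL8, the other gene of this list called lower. The CXCL1 calls held under all 22 alternatives, no filter among them. RELB rose by 0.96 and 1.28 (adjusted p = 0.031 and 0.00937). Its day 2 call was lost without day 0 replicate 1, any 1 day 2 library or day 14 replicate 2. A block on replicate number also ended it (adjusted p up to 0.104). NFKB2 rose at day 14 (0.94, adjusted p = 0.0326), and its call was lost without day 2 replicate 2 or 3 or any 1 day 14 library. It was also lost under median-ratio scaling and with a block on replicate number. A fit of these days alone and TPM without MIR6723 and MIR4461 ended it too (adjusted p up to 0.0972). RELA was at 59 ± 34.5, 87.1 ± 7 and 106 ± 10.5 TPM (adjusted p = 0.227 and 0.11). NFKBIA, the inhibitor and a target of NF-kB, was at 40.6 ± 3.07, 26.8 ± 1.45 and 27 ± 7.44 TPM (adjusted p = 0.0775 and 0.0627). RELA passed at day 14 without day 0 replicate 2 (0.41, adjusted p = 0.0222), and with array weights. NFKBIA passed as lower at day 2 without day 14 replicate 1 and with array weights. At day 14 it did so under median-ratio scaling, quantile normalization, array weights and without ribosomal protein genes (adjusted p down to 0.0125).

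In the short list of MCL1 turnover genes 1 of 5 was higher at day 2 and 2 at day 14, and none was lower, with list medians of 0.28 and 1.11. The deubiquitinase gene USP9X, whose product stabilizes MCL1, was at 9.78, 2.38 and 9.93 TPM at day 0 and at 21.3 to 28.9 TPM later (log2 changes 1.88 and 1.70, adjusted p = 0.0104 and 0.0148). Without day 0 replicate 2 its changes were 1.32 and 1.14. The day 14 call was lost without day 14 replicate 2 and in a fit of day 0 and day 14 alone (adjusted p up to 0.0515). BTRC, an adaptor of a ubiquitin ligase, rose at day 14 (1.11, adjusted p = 0.0289), a call lost without any 1 day 14 library. No filter, a fit of these days alone and TPM without MIR6723 and MIR4461 also ended it (adjusted p up to 0.0949). The list without day 0 replicate 2 had 2 higher at day 2 and 4 at day 14, with medians of 0.023 and 0.71. HUWE1, a ubiquitin ligase gene of this list, was at 28.4 ± 21.1, 59.5 ± 6.7 and 74 ± 4.95 TPM. Its log2 changes of 1.52 and 1.83 did not pass (adjusted p = 0.12 and 0.0651). Without day 0 replicate 2 they were 0.56 and 0.87 and passed (adjusted p = 0.0143 and 0.00212). Between day 14 and day 2 none of the genes in these 8 lists was called in either direction. Without day 0 replicate 2 at most 3 in a list were higher and at most 1 lower. That fit called 3307 of 14144 tested genes higher and 541 lower between these days.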

How the data were processed

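Gene expression was measured by RNA sequencing of total RNA from 9 PANC-1 samples, with Qiagen extraction and commercial library construction, per the labels' protocols. The authors gave their expression values as TPM in a single symbol-level table, for which the submitters' processing notes name Salmon and hg19. For the annotation, strand setting, filters and Salmon version, the entry is: not given in the sources used here. Values are per symbol, so isoforms are not separated. The microRNA symbols MIR6723 and MIR4461 alone held 16.2% to 32.6% and 0.982% to 11.2% of a library, which scales all other values.

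Columns were assigned by day and replicate number, and no 2 libraries had an equal value above 0 for any gene. The 10 members and the other gene lists were chosen with earlier results of these data known. The 14144 genes that reached 1 TPM in 3 or more of the 9 libraries were fitted together as log2(TPM + 1) in limma 3.58.1 (R 4.3.3) with an intensity trend. Tests were two-sided, and Benjamini-Hochberg adjustment ran over all tested genes within a comparison at 0.05. Fold changes on this scale understate those of low genes. The median change of all genes was 0.23, 0.44 and 0.24 in the 3 comparisons, and 0.025, 0.015 and 0.0058 under median-ratio scaling, so key changes are also given relative to it. The members were all named. Of each other list up to 2 called rises and 2 called falls per comparison with a mean of at least 5 TPM were named, plus 14 genes fixed by name; some of these genes and 1 list are not reported here. Values are mean ± SD of 3 libraries, except that the ± of a gene's log2 change is the SE from the fit. Promoter windows came from RefSeq (GRCh38.p14), matched by symbol. The fit was also run on simulated data with changes planted only at day 2, and no result here rests on that run.

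Alternatives covered the pseudocount (0.1 or 5), the filter (none, or a mean of 5 TPM), 3 other scalings, 3 other variance models, blocking on replicate number, fitting each pair of days by itself, and omitting each library. Added after the data were seen were TPM without MIR6723 and MIR4461, and BCL2L2 with its readthrough.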

Additional observations from a re-analysis of the deposited data

How the results depend on the processing

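Depth limits cannot be given, because TPM keeps no depth, and with 3 libraries a day a few libraries set many calls. The calls of BCL2A1, BBC3 and BMF against day 0, and of BCL2L11 at day 2, held under all 22 alternatives run. Same-numbered libraries did not deviate together (correlations of deviations from -0.0795 to 0.0154), and with replicate number as a block 3290, 3771 and 2 genes were called at day 2 against day 0, day 14 against day 0 and day 14 against day 2. The block ended the calls of MCL1 at day 2 (adjusted p = 0.0504), PMAIP1 at day 14 (0.0646) and BCL2L1 from day 2 to day 14 (0.1). In place of 4348 genes, array weights called 8975 at day 2. In place of 4841 at day 14 against day 0, a mean of 5 TPM called 3214, array weights 8455 and only these 2 days 2927. In place of 59 at day 14 against day 2, 6 and 127 were called with pseudocounts of 0.1 and 5, 24 with a mean of 5 TPM, 115 with median-ratio scaling, 305 with quantile normalization, 129 without ribosomal protein genes, 5052 with array weights, 2519 with only these 2 days and 16 without MIR6723 and MIR4461. Leaving out each library gave 2707 to 6822, 3200 to 6936 and 1 to 3848 genes in the 3 comparisons, the highest in each being without day 0 replicate 2. Quantile normalization made 48.7% and 51% of the calls at day 2 and day 14 against day 0 higher. Members called higher at day 14 against day 0 were 2 with only these days and 3 to 6 with each library left out. Of all 14144 tested genes 2349 and 2572 to 4873 were then higher. Members lower were 2 with array weights and 1 to 2 with each library left out. Of all tested genes 2785 and 628 to 2063 were then lower. At day 2, 4 members were lower with array weights, 1 with only these 2 days and 1 without MIR6723 and MIR4461. Of all tested genes 4662, 1180 and 1377 were then lower. With each library left out 1 to 3 members were lower and 3 to 4 higher. Among all tested genes 945 to 3351 were then lower and 1671 to 3471 higher. At day 14 against day 2, 0 members were higher with a pseudocount of 0.1, no filter or a mean of 5 TPM. The same held with the block and without MIR6723 and MIR4461. With array weights or only these 2 days 2 members were higher, and 0 to 2 with each library left out. Of all tested genes 4407, 2138 and 0 to 3307 were then higher. The anti-apoptotic minus pro-apoptotic change at day 2 was -2.84 and -1.24 with pseudocounts of 0.1 and 5, -1.55 with medians and -1.16 without BCL2A1. At day 14 these were -2.05, -0.75, -1.08 and -0.55. Sign changes met only members that were not called. BAK1 at day 14 against day 0 was at -0.016 (pseudocount 5), -0.50 (median-ratio), -0.44 (quantile), -0.019 (no ribosomal protein genes), -0.48 (array weights) and -0.057 (without MIR6723 and MIR4461), and at -0.41 to 0.26 with each library left out. BCL2L2 against day 0 was at -0.26 (median-ratio), -0.26 (quantile), -0.062 (array weights) and -0.013 (readthrough added) at day 14, and at -0.012 (array weights) and -0.048 (readthrough added) at day 2. From day 2 to day 14 it was at 0.0089 (no ribosomal protein genes), 0.035 (readthrough added) and -0.13 to 0.043 with each library left out. MCL1 from day 2 to day 14 was at -0.12 (median-ratio) and -0.042 (quantile). The cause of these shifts was not tested.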
